A study of Mus musculus with 4 samples.

Results

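Group 2 innate lymphoid cells (ILC2s) were taken from droplet single-cell RNA libraries of whole mouse lung as cells that carried at least 1 UMI (a counted transcript molecule) in at least 3 of 7 genes: Il1rl1, Gata3, Rora, Il17rb, Areg, Arg1 and Il5. They also had to carry no UMI of Cd3e, Cd3d, Cd3g, Trdc, Cd79a, Cdh5, Mcpt8, Ms4a2, Cpa3 or Csf1r, which mark T, B, endothelial, basophil, mast and mononuclear phagocyte lineages. The cells were thus chosen by their own transcript counts. The rule was met by 228 of 53463 kept cells, those with at least 300 genes and at most 20% mitochondrial UMIs. The study sampled Galt gene-edited mice (GAL, 2 libraries) and wild-type mice (WT, 2 libraries); neither the kind of edit nor the age, nor the number of animals behind a library, is in the labels. The GAL libraries held 65 and 32 ILC2s and the WT libraries 68 and 63. The Galt product is a uridylyltransferase of the Leloir pathway, by which cells break down galactose.

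ILC2s are tissue-resident lymphocytes that carry no antigen receptor. In the lung they are known to respond to the epithelial alarmins IL-33, IL-25 and TSLP, and to answer with the type 2 cytokines IL-5, which sustains eosinophils, and IL-13, which acts on mucus-producing epithelium and smooth muscle, and with amphiregulin (Areg), a growth factor of tissue repair. GATA3 and RORalpha are the transcription factors that set their identity, and neuropeptides and lipid mediators are known to raise or restrain their cytokine output.

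The 7 counted genes, and the 10 whose absence was required, chose the cells, so their values are a description. GATA3 binds a short motif, searched here on both strands as AGATAA or AGATAG and as TGATAA or TGATAG. The 250 bases before the start of 4 genes that characterise the cells are shown, from RefSeq on GRCm38.p6, 5' to 3' on the gene's own strand, with each match in capitals; a match is a run of letters, not a shown binding site. Il13 lies on the minus strand of chromosome 11, at 11:53631324-53634702. On the same chromosome lie Il5, on the plus strand at 11:53720794-53725106, and Csf2, on the minus strand at 11:54247271-54249667. Il1rl1, the IL-33 receptor, lies on the plus strand at 1:40429570-40465415.

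Il13, chr11:53634703-53634952: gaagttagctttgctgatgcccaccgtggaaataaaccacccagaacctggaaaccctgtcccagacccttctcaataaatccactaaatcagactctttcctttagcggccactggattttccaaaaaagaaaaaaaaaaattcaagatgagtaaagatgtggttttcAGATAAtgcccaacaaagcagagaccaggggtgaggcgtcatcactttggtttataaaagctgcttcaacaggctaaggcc

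Il5, chr11:53720544-53720793: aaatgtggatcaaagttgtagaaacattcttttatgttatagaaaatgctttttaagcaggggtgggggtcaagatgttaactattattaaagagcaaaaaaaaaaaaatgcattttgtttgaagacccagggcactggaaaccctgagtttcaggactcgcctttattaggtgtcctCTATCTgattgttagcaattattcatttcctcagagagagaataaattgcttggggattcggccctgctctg

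Csf2, chr11:54249900-54250149: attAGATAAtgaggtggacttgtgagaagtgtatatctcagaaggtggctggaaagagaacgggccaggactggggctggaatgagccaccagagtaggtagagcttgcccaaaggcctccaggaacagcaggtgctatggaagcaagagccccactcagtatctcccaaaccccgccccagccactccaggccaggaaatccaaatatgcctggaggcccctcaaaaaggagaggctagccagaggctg

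Il1rl1, chr1:40429320-40429569: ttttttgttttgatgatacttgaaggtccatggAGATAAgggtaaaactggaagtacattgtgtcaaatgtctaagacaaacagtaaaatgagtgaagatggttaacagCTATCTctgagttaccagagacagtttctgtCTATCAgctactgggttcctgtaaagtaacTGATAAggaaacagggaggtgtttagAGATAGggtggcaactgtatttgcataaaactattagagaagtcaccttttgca

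RefSeq places the start of Csf2 further upstream than the gene annotation behind the coordinates above, so that window does not abut the printed gene. The Il13 window held 1 match, whose first base lay at -81 from the start. The Il5 window held 1 match at -72, read on the opposite strand, and the Csf2 window 1 match at -247. The first listed start of Il1rl1 held 5, and its second listed start, not shown, held 1. Of 32851 listed mouse starts, 8718 (26.5%) held at least 1 match in a window of this length and 14 (0.0426%) held at least 5. One match was therefore common, and 5 were rare.

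The libraries held between 56218178 and 62406681 UMIs over 12045 to 15583 barcodes, and barcodes below 500 UMIs were not among those analysed here. The ILC2s of each library summed to 340846 and 94186 UMIs in GAL and to 210954 and 243052 UMIs in WT, so GAL replicate 2 carried the least information. Their median depth was 3260 and 2001.5 UMIs per cell in GAL, against 1695.5 and 2452 in WT. Of all barcode sequences, before the filters on genes and mitochondrial UMIs, 107 to 149 were shared by any pair of libraries, and none marked an ILC2 in both. Which animals stand behind which library is not in the labels, so each p-value below measures only the spread between these 4 libraries. With 2 libraries a group, an exact permutation test cannot go below p = 0.333.

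ILC2s made up 0.535% (exact 95% interval 0.413 to 0.681) and 0.269% (0.184 to 0.380) of kept cells in GAL, against 0.485% (0.377 to 0.615) and 0.409% (0.314 to 0.523) in WT. The GAL libraries lay on either side of both WT libraries, so the groups overlapped. The mean share was 0.402% ± 0.188 in GAL and 0.447% ± 0.0542 in WT (SD, n = 2 each), a difference of -0.0448 percentage points (exact permutation test, two-sided, p = 1). Without GAL replicate 2 the difference was 0.0881, and without GAL replicate 1 it was -0.178. Among cells with a UMI of Ptprc, the pan-leukocyte CD45 gene, the shares of ILC2s were 0.728% and 0.264% in GAL, against 0.555% and 0.461% in WT, again with GAL on both sides (difference -0.0120, exact permutation p = 1). These intervals cover counting error only.

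**Figure D1:**
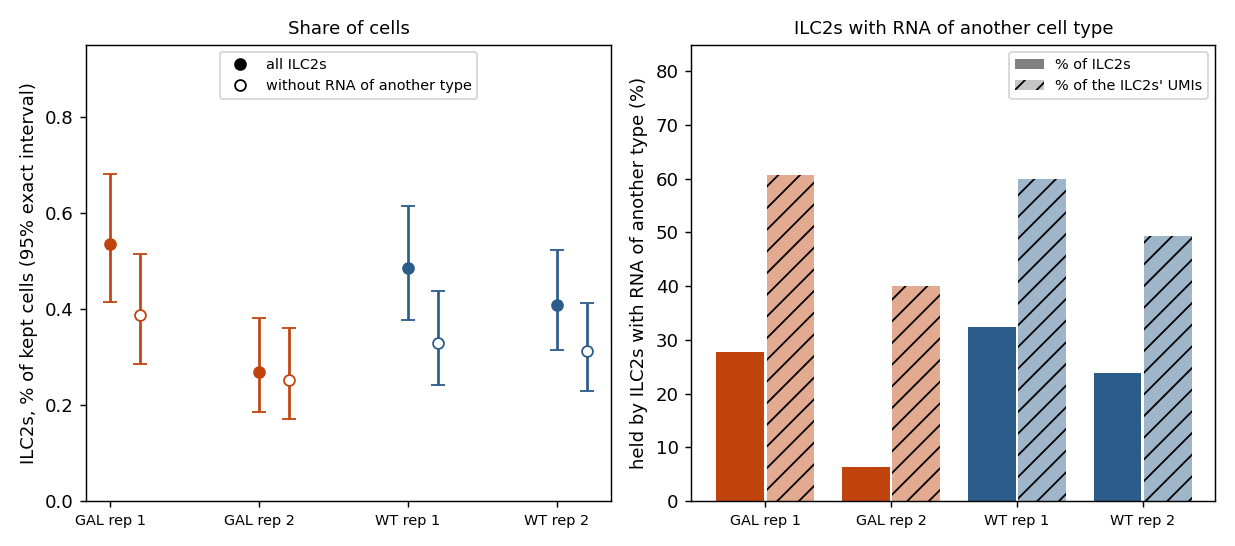
Left, ILC2s as a percentage of kept cells in each library, all of them (filled) and those without RNA of another cell type (open), with exact 95% intervals. Right, the percentage of ILC2s, and of their UMIs, in those that carried RNA of another type. The GAL libraries, at 0.535% and 0.269%, lie on both sides of the WT libraries, and the 57 ILC2s with RNA of another type hold 55.2% of the UMIs.

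The rule cut through a continuum. Of 914 kept cells with at least 3 of the 7 genes, 401 to 489 carried each of the 3 Cd3 genes, 74 carried Csf1r and 64 carried Cdh5, and these were left out. Exactly 3 genes were seen in 107 of the 228 ILC2s, 4 in 65, 5 in 38, 6 in 15 and all 7 in 3. Just outside the rule stood 927 cells with exactly 2 genes and none of the 10 absent ones, at a median of 8666 UMIs; 68.5% of them carried Ptprc and 16.1% carried Il7r, the IL-7 receptor. Just inside it, the cells with exactly 3 genes had a median of 2223 UMIs, 71.0% carried Ptprc and 57.9% carried Il7r. The commonest makeup was Gata3, Rora and Areg alone, in 23 cells, and then Il1rl1, Gata3 and Rora alone, in 19.

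Among the 7 counted genes, Rora was seen in 98.2% of ILC2s, Areg in 73.7%, Gata3 in 68.9%, Il1rl1 in 64.5%, Arg1 in 38.2%, Il5 in 30.7% and Il17rb, the IL-25 receptor, in 12.7%. Areg gave 436 and 247 UMIs in the GAL ILC2s and 200 and 259 in the WT ILC2s, which is 1279 and 2622 CPM (a gene's UMIs scaled to a fixed total of the cells' own UMIs) in GAL against 948 and 1066 CPM in WT. Il5 stood at 346 and 234 CPM in GAL, against 147 and 346 CPM in WT. Il1rl1 stood at 288 and 488 CPM in GAL, against 403 and 465 CPM in WT. Gata3 stood at 323 and 435 CPM in GAL, against 374 and 473 CPM in WT. For Areg both GAL libraries were above both WT libraries, and for Il5, Il1rl1 and Gata3 the groups overlapped. Arg1, the arginase that lung ILC2s are known to hold, was at 176 and 127 CPM in GAL, against 190 and 255 CPM in WT, with both GAL libraries below both WT libraries. In the ILC2s without RNA of another type, a restriction described below, Arg1 was at 403 and 195 CPM in GAL, against 343 and 373 CPM in WT, and the groups overlapped.

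The cells were then described by 22 ILC2 markers that the rule did not use. The list was chosen with earlier results of these data known, so it is not an independent check of the label. It includes Hs3st1, Ccdc184, Csf2 and Calca, which are among the genes named below as higher in ILC2s. ILC2s carried a median of 5 of them, and 191 of 228 (83.8%) carried at least 3. By library the share was 87.7% and 93.8% in GAL and 76.5% and 82.5% in WT. T cells shared much of this list: 79.7% of 1485 CD4 T cells and 81.8% of 369 Foxp3 regulatory T cells also carried at least 3, against 15.1% of 1508 NK cells and 0.879% of 6372 B cells. The count alone therefore set ILC2s apart from NK and B cells and not from T cells. Ptgdr2, the prostaglandin D2 receptor often used to sort ILC2s, had no UMI in any of the 228, which allows a share of up to 1.32% of cells with a UMI; Nmur1, the neuromedin U receptor, had 2 UMIs. Markers of other innate lymphocytes were scarce: Ncr1 and Il23r had no UMI, Tbx21 had 2 and Eomes had 6. Of the basophil genes that the rule did not use, Fcer1a had 1 UMI and Gata2 had 2.

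Many of the cells also held RNA typical of other cell types. ILC2s with at least 2 transcripts of 1 of 5 marker lists (epithelial, macrophage, fibroblast, T cell or endothelial, each without the most abundant free transcripts such as Sftpc, Lyz2 and Trbc2) numbered 18 and 2 in GAL and 22 and 15 in WT. These 57 cells, 25.0% of ILC2s, had a median of 7585 UMIs, against 2132 in the other 171, and held 55.2% of all ILC2 UMIs. At least 3 of the 22 ILC2 markers were seen in 54.4% of the 57 and in 93.6% of the 171. By list, 21 carried macrophage, 15 epithelial, 15 fibroblast, 14 T cell and 7 endothelial RNA. Ptprc was seen in 40.0% of those with epithelial RNA and in 53.3% of those with fibroblast RNA. For macrophage, T cell and endothelial RNA the shares were 90.5%, 85.7% and 100%. Whether the cells without Ptprc were ILC2s was not tested. The kinds were unevenly spread: 10 of the 15 with epithelial RNA were in GAL replicate 1, and 12 of the 14 with T cell RNA were in WT replicate 1. Macrophage RNA by the same criterion was seen in 9.21% of ILC2s, against 3.50% of CD4 T cells, 3.79% of regulatory T cells, 3.38% of NK cells and 2.31% of B cells. A doublet caller's own threshold marked 0.00823% of cells in GAL replicate 1 and did not work there. The main counts below, and the values of genes whose call or direction changed, are therefore also given for the 171 ILC2s without RNA of another type, a restriction chosen after these values were seen and not applied to the other cell sets.

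Levels of the other types' marker lists in ILC2s, summed over each list, were as follows. The 6 epithelial markers came to 42092 and 53.1 CPM in GAL, against 7381 and 350 CPM in WT, nearly all of it Sftpc of surfactant-producing cells. The 7 macrophage and monocyte markers came to 6056 and 10915 CPM in GAL, against 9798 and 8541 CPM in WT. The 7 fibroblast and mural markers came to 1015 and 127 CPM in GAL, against 185 and 572 CPM in WT. The 9 T cell markers came to 352 and 403 CPM in GAL, against 602 and 490 CPM in WT; Cd4 and Foxp3 were at 0 in both GAL libraries, and Cd8a and Cd8b1 in both WT libraries. For the T cell list both GAL libraries were below both WT libraries, and for the other 3 lists the groups overlapped. The 5 B and plasma cell markers came to between 24.7 and 95.6 CPM, the 8 NK markers to between 14.2 and 372 CPM and the 5 endothelial markers to between 10.6 and 71.1 CPM over the 4 libraries.

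Secreted factors and an enzyme that the rule did not use, Il13, Csf2, Ccl1, Calca and Hs3st1, are given by library. Il13 gave 31 and 6 UMIs in the GAL ILC2s, against 6 and 21 UMIs in the WT ILC2s, all from 20 cells (8.77%). Csf2, which encodes the growth factor GM-CSF, gave 67 and 19 UMIs in GAL, against 11 and 39 in WT, from 19.3% of the cells. Ccl1, the ligand of the chemokine receptor CCR8, gave 86 and 32 UMIs in GAL and 29 and 91 in WT. Calca, which encodes calcitonin and the neuropeptide CGRP, gave 141 and 20 UMIs in GAL and 54 and 103 in WT. Hs3st1, a heparan sulfate 3-O-sulfotransferase, gave 56 and 29 UMIs in GAL and 11 and 61 in WT. WT replicate 1 had the lowest CPM of Il13, Csf2, Ccl1 and Hs3st1, and GAL replicate 2 had the lowest of Calca.

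Because depth differed between sets and free RNA gives UMIs to cells that do not make a gene, each cell was also thinned to 1000 UMIs, and B cells served as a background set. Il13 was then seen in 5.53% of ILC2s (6.88% of those without RNA of another type), against 0.339% of CD4 T cells and 0.0166% of B cells. Without thinning it was seen in 0.271% of regulatory T cells and in 0 of 1508 NK cells, a count that allows up to 0.199% of them. Csf2 was seen in 13.8% of thinned ILC2s, against 0.271% of CD4 T cells and 0.349% of NK cells, and Calca in 25.3%, against 3.32% and 1.12%. Il7r, on which ILC2s and T cells both depend, was seen in 47.9% of ILC2s, 39.7% of CD4 T cells and 34.1% of regulatory T cells, against 1.05% of NK cells and 1.39% of B cells. Il2ra, the high-affinity IL-2 receptor chain, was seen in 23.5% of ILC2s and 23.4% of regulatory T cells, but in 2.78% of CD4 T cells. Hs3st1 was less exclusive, at 20.7% of ILC2s and 5.88% of B cells. The median depths before thinning were 2315.5 UMIs in ILC2s and 1947 in B cells.

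**Figure D2:**
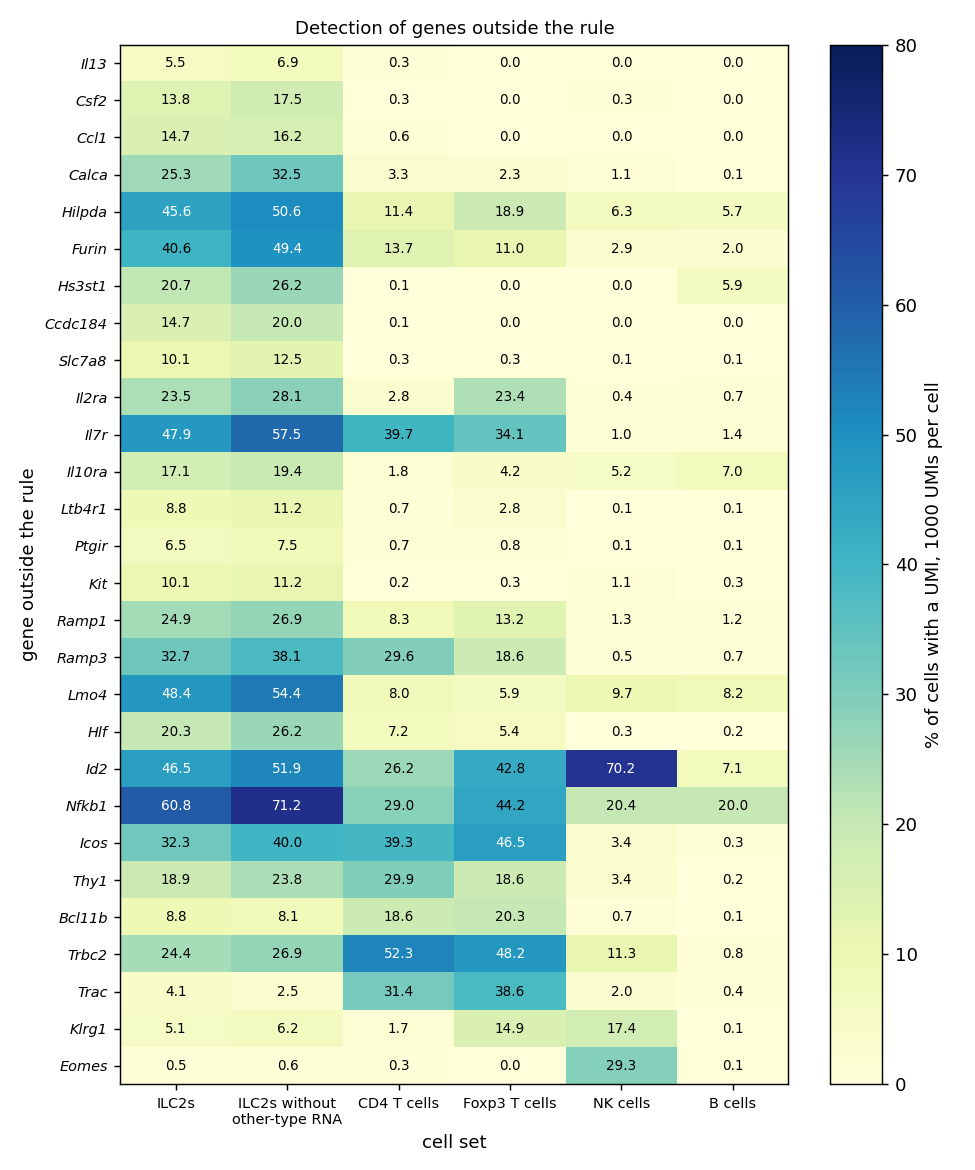
Percentage of cells with a UMI, after thinning every cell to 1000 UMIs, for 28 genes outside the rule (rows) in ILC2s, ILC2s without RNA of another type, and 4 other cell sets (columns). Il13, Csf2 and Ccl1 are seen in 5.53%, 13.8% and 14.7% of ILC2s and in under 1% of each other set, while Il7r and Icos are shared with T cells and Id2 with NK cells.

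ILC2s were 0.426% of kept cells and held 0.374% of kept UMIs. Against that, they held 64 of the 277 Il13 UMIs of the whole data set (23.1%, exact 95% interval 18.3 to 28.5) and 136 of the 524 Csf2 UMIs (26.0%, 22.2 to 29.9). By library the ILC2 share of Il13 was 36.9% and 15.4% in GAL and 8.45% and 25.3% in WT, with the groups overlapping. For Csf2 it was 35.8% and 27.9% in GAL and 10.4% and 23.9% in WT. The ILC2 UMIs of Il13 and Csf2 came from 20 and 44 cells. The pooled intervals cover counting error only and are narrower than the spread between libraries. The remaining Il13 lay mainly in cells with Cd3 or Trdc, which held 112 UMIs, and in cells with basophil or mast cell genes, which held 72. Il4 differed: ILC2s held 1 of its 348 UMIs (0.287%). Il9, another type 2 cytokine, had 2 UMIs in the data set, both in ILC2s of GAL replicate 1. Among the genes of the rule, which are descriptions only, ILC2s held 58.6% of Il5, 14.8% of Arg1, 14.0% of Il1rl1 and 3.66% of Areg.

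**Figure D3:**
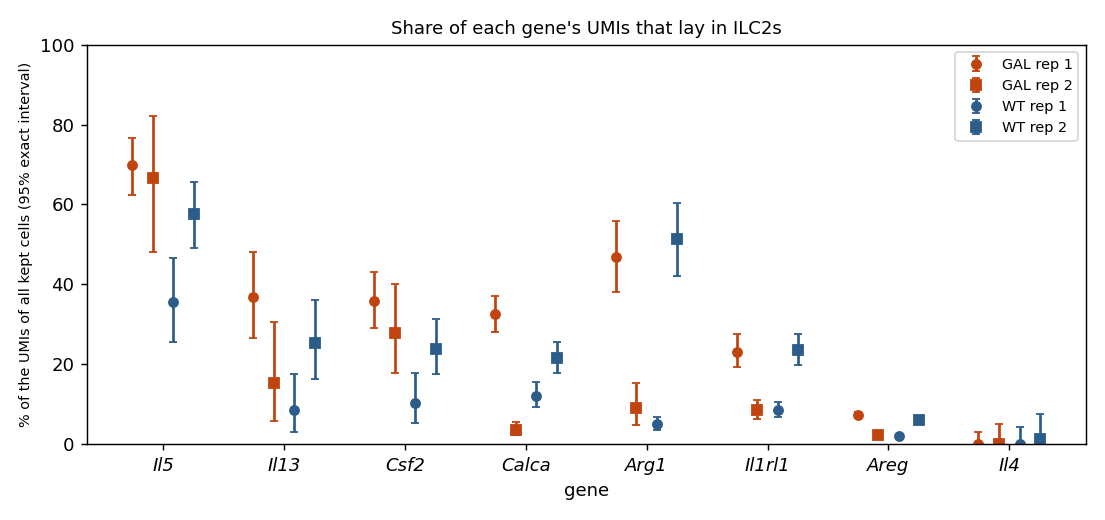
Share of each gene's UMIs in all kept cells that lay in ILC2s, by library, for 8 genes (Il5, Arg1, Il1rl1 and Areg were counted by the rule). ILC2s hold 23.1% of Il13 and 26.0% of Csf2 over the 4 libraries, but 0.287% of Il4.

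Genes seen together in the same ILC2s are described next. At this depth a cell without a UMI can still hold the transcript, so whether the cytokines mark shared or separate cells was not tested. Il5 was seen in 10 of the 20 cells with Il13 and in 28.8% of those without it, at median depths of 2955 and 2273 UMIs. Cells with Il5 more often carried Il2ra (62.9%, against 33.5% of cells without Il5) and Calca (42.9%, against 22.2%), at similar median depths of 2393.5 and 2240 UMIs. Cells with Il13 carried Calca in 25.0% of cases, against 28.8% of those without Il13. Hs3st1 was seen in 43.5% of cells with Il1rl1 and in 14.8% of cells without it. These are descriptions over cells that share libraries, with no test. Il5 and Il1rl1 were counted by the rule, so values split by them follow the choice of cells in part. All 228 ILC2s enter, also the 57 with RNA of another type, which carried fewer of the ILC2 markers outside the rule.

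ILC2s were then set against 3 lymphocyte sets of the same libraries, CD4 T cells without Foxp3, Foxp3 regulatory T cells, and NK cells, on UMIs summed per library and set. edgeR's quasi-likelihood test with the library as a block and Benjamini-Hochberg adjustment called genes at an adjusted p under 0.05. Against CD4 T cells, 737 of 6360 genes were called higher in ILC2s (11.6%) and 416 lower (6.54%). Against regulatory T cells, 348 of 3178 were higher (11%) and 315 lower (9.91%). Against NK cells, 859 of 4885 were higher (17.6%) and 618 lower (12.7%). Against all 3 sets, 269 of the 3103 genes tested in each were called higher (8.67%) and 117 lower (3.77%). For the ILC2s without RNA of another type these were 210 and 69 of 1762 genes, and 86 of the 210 and 37 of the 69 were also called in all ILC2s. Of all genes tested against CD4 T cells, 412 of 5677 were then called higher and 388 lower. Against regulatory T cells these were 296 and 220 of 1792 genes, and against NK cells 582 and 493 of 3934. The counts for gene lists below stand beside these numbers for all genes. A gene rare elsewhere could pass the filter on low counts through ILC2s alone, and CD4 and regulatory T cells were chosen for the Cd3 genes that ILC2s had to lack.

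The genes with the largest smallest difference over the 3 comparisons were led by Hs3st1, which averaged 194 ± 111 CPM in ILC2s (SD, n = 4 libraries), against 1.36 ± 0.591 in CD4 T cells, 2.00 ± 3.06 in regulatory T cells and 0.915 ± 1.45 in NK cells. Its log2 fold change against CD4 T cells was 7.09 ± 0.36 (SE; edgeR, adjusted p = 4.28e-07). Against regulatory T cells and NK cells, which held 2 and 3 UMIs in all, the ratio of summed levels was 120 (95% counting interval 32.6 to 997) and 204 (68.6 to 1001). Ccdc184, of unclear function, averaged 114 ± 48.3 CPM in ILC2s, with a log2 fold change of 6.72 ± 0.39 against CD4 T cells. Stab2, a scavenger receptor known from sinusoidal endothelium, averaged 97.5 ± 65.5 CPM, against 1.60 ± 0.477 CPM in NK cells (5.95 ± 0.47). All 3 were higher in ILC2s in 4 of 4 libraries. Gcnt1, a glycosyltransferase that branches O-glycans, averaged 75.5 ± 19.7 CPM in ILC2s, with log2 fold changes of 4.04, 3.55 and 3.70 over CD4 T, regulatory T and NK cells. Pxdc1 averaged 202 ± 70.9 CPM (3.97, 3.45 and 4.72) and the unnamed transcript Gm43445 averaged 80.1 ± 26.7 CPM (3.93, 3.99 and 3.38).

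Cytokine and chemokine genes followed. Csf2 averaged 153 ± 69.5 CPM in ILC2s, against 4.53 ± 4.38 in CD4 T cells (log2 fold change 5.20 ± 0.44, edgeR adjusted p = 8.64e-06) and 6.24 ± 7.09 in NK cells (5.04 ± 0.41). Regulatory T cells had no Csf2 UMI; by summed levels it was at least 69.1-fold higher in ILC2s against a floor of 3 UMIs over that set, or 55.5-fold at the lower 95% counting limit of the ratio. Ccl1 averaged 276 ± 106 CPM, against 9.21 ± 5.42 in CD4 T cells (4.92 ± 0.32), and by summed levels was at least 121-fold higher than in regulatory T cells (lower counting limit 97.7) and at least 310-fold higher than in NK cells (250), where it had no UMI. Il13 averaged 67.4 ± 28.6 CPM, against 3.83 ± 2.02 in CD4 T cells (4.07 ± 0.46, adjusted p = 5.96e-05), and its summed level of 72.0 CPM was at least 83.2-fold higher than the floor in NK cells (lower counting limit 65.8). Calca averaged 326 ± 108 CPM, against 43.0 ± 36.6 in CD4 T cells (3.27 ± 0.45), 25.5 ± 27 in regulatory T cells (3.31 ± 0.46) and 14.2 ± 7.81 in NK cells (4.68 ± 0.22). Cxcl2, a neutrophil-attracting chemokine, averaged 3652 ± 755 CPM, with log2 fold changes of 3.10 to 3.49, but stood at 2893 to 5014 CPM over all kept cells of a library as well. Csf2, Ccl1, Calca and Cxcl2 were also called higher against all 3 sets in the ILC2s without RNA of another type.

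Of the 22 ILC2 markers outside the rule, 9 of 17 tested were called higher and 3 lower than in CD4 T cells, 6 of 16 higher and 5 lower than in regulatory T cells, and 14 of 17 higher and 3 lower than in NK cells. In the ILC2s without RNA of another type 14 of 18, 11 of 15 and 14 of 17 were called higher, and 0, 0 and 2 lower. Because this list was chosen with earlier results of these data known, its counts are descriptions and not a separate check. Of the 21 type 2 cytokines and effectors listed, 9 of 16 tested were called higher than in CD4 T cells and 2 lower, 7 of 11 higher than in regulatory T cells with none lower, and 10 of 12 higher than in NK cells with 2 lower. Of all genes tested, 11.6%, 11% and 17.6% were called higher in these comparisons. Furin, a protease that matures secreted factors, averaged 464 ± 48.3 CPM in ILC2s, against 172 ± 145 in CD4 T cells (log2 fold change 1.97 ± 0.40), 92.2 ± 82.7 in regulatory T cells (2.47 ± 0.37) and 35.8 ± 6.24 in NK cells (3.92 ± 0.19). Hilpda, a regulator of lipid droplets, averaged 1050 ± 328 CPM, against 149 ± 17.4 (2.85 ± 0.19), 231 ± 100 (2.27 ± 0.26) and 94.8 ± 33.3 (3.70 ± 0.18) in the same 3 sets. Ccl5 was lower than in NK cells, at 291 ± 249 CPM against 16367 ± 2230 CPM (-5.95 ± 0.40), and lower than in CD4 T cells (-1.67 ± 0.42). Without RNA of another type, 9 of 14, 6 of 7 and 7 of 9 tested members of the list were called higher, and 3, 0 and 2 lower.

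Of the listed receptors for neural and lipid signals and related genes, most of those tested were called higher in ILC2s. Genes rare in the other sets could pass the filter on low counts through ILC2s alone, so these shares follow the filter in part. Of 19 listed, 8 of 11 tested were called higher than in CD4 T cells, 3 of 5 higher than in regulatory T cells and 8 of 9 higher than in NK cells, and none was lower; the median log2 fold changes were 1.53, 1.27 and 2.45, against -0.03, -0.01 and -0.04 over all genes tested. Ramp1, part of the CGRP receptor, averaged 228 ± 72.6 CPM, against 92.9 ± 47.8 in CD4 T cells (1.53 ± 0.34), 108 ± 67.8 in regulatory T cells (1.14 ± 0.37) and 22.3 ± 7.47 in NK cells (3.59 ± 0.24). Ltb4r1, the leukotriene B4 receptor, was higher than in CD4 T cells (2.77 ± 0.33) and NK cells (5.17 ± 0.47), and its difference from regulatory T cells missed the threshold in all ILC2s (1.27 ± 0.44, adjusted p = 0.0603) and was called without RNA of another type (2.32). Ptgir, the prostacyclin receptor, was higher than in CD4 T cells (3.09 ± 0.50). Without RNA of another type 7 of 10, 3 of 3 and 6 of 8 were called higher. Alox5ap, which takes part in leukotriene synthesis and is not a receptor, was not among them (-0.74 against CD4 T cells, edgeR adjusted p = 0.345).

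Of 19 alarmin and cytokine receptors outside the rule, 2 of 17 tested were called higher and 6 lower than in CD4 T cells, 1 of 13 higher and 4 lower than in regulatory T cells, and 3 of 15 higher and 4 lower than in NK cells, shares of higher calls near those of all genes tested. Restricted to ILC2s without RNA of another type, 5 of 18, 4 of 8 and 5 of 14 were called higher, and 1, 1 and 4 lower. Il2ra averaged 203 ± 46.8 CPM, against 31.5 ± 13.6 in CD4 T cells (log2 fold change 2.81 ± 0.31) and 5.04 ± 3.04 in NK cells (5.66 ± 0.35); its difference from regulatory T cells, at 193 ± 122 CPM, was 0.28 ± 0.38 (adjusted p = 0.682), and without RNA of another type it was called higher (1.25, adjusted p = 0.000469). Il10ra, the IL-10 receptor, was higher than in all 3, at 127 ± 38.1 CPM (3.19 ± 0.33, 1.96 ± 0.33 and 1.65 ± 0.24). Il7r averaged 515 ± 124 CPM, with differences of -0.15 ± 0.20 from CD4 T cells and 0.09 ± 0.24 from regulatory T cells that did not pass, and was higher than in NK cells (4.80 ± 0.24). Il2rb, the IL-2 and IL-15 receptor chain, and Ifngr1, the interferon-gamma receptor, were lower than in all 3; against NK cells the values were -3.12 ± 0.21 and -1.81 ± 0.18. Without RNA of another type, Il7r was called higher than in CD4 T cells (0.65, adjusted p = 0.00654), and neither Il2rb nor Ifngr1 was called lower than in CD4 T cells (-0.06 and -0.32).

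Among transcription factors, Lmo4, a LIM-domain cofactor, averaged 880 ± 134 CPM in ILC2s, against 87.5 ± 19.7 in CD4 T cells (log2 fold change 3.42 ± 0.18), 54.0 ± 21.0 in regulatory T cells (4.02 ± 0.25) and 124 ± 18.6 in NK cells (3.06 ± 0.17; edgeR adjusted p = 1.24e-08). By library it stood at 851 and 902 CPM in the GAL ILC2s and 721 and 1045 CPM in the WT ILC2s, the tightest of the leading genes. Hlf, a PAR bZIP factor, averaged 203 ± 65.1 CPM (1.85 ± 0.45, 2.25 ± 0.40 and 6.37 ± 0.33), and Nfkb1, an NF-kappaB subunit, averaged 1290 ± 590 CPM (1.90 ± 0.18, 1.43 ± 0.20 and 2.33 ± 0.16). Id2, the inhibitor that all innate lymphoid cells need, was higher than in CD4 T cells (1.33 ± 0.18) and regulatory T cells (0.88 ± 0.24) and lower than in NK cells (-0.47 ± 0.15); without RNA of another type the last was 0.25 and not called. Tcf7, of naive and memory T cells, was lower than in CD4 T cells (-2.65 ± 0.36). Bcl11b, a T and ILC2 factor, was lower than in both T cell sets (-1.30 ± 0.23 and -1.30 ± 0.25) and higher than in NK cells (3.02 ± 0.41); without RNA of another type it was not called against either T cell set (-0.52 and -0.54). In all, 8 of 19, 6 of 15 and 6 of 16 tested factors were called higher and 6, 6 and 5 lower than in CD4 T, regulatory T and NK cells in turn. The shares of all genes called higher were 11.6%, 11% and 17.6%. Without RNA of another type 6 of 18, 4 of 13 and 7 of 15 factors were higher and 2, 3 and 5 lower.

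**Figure D4:**
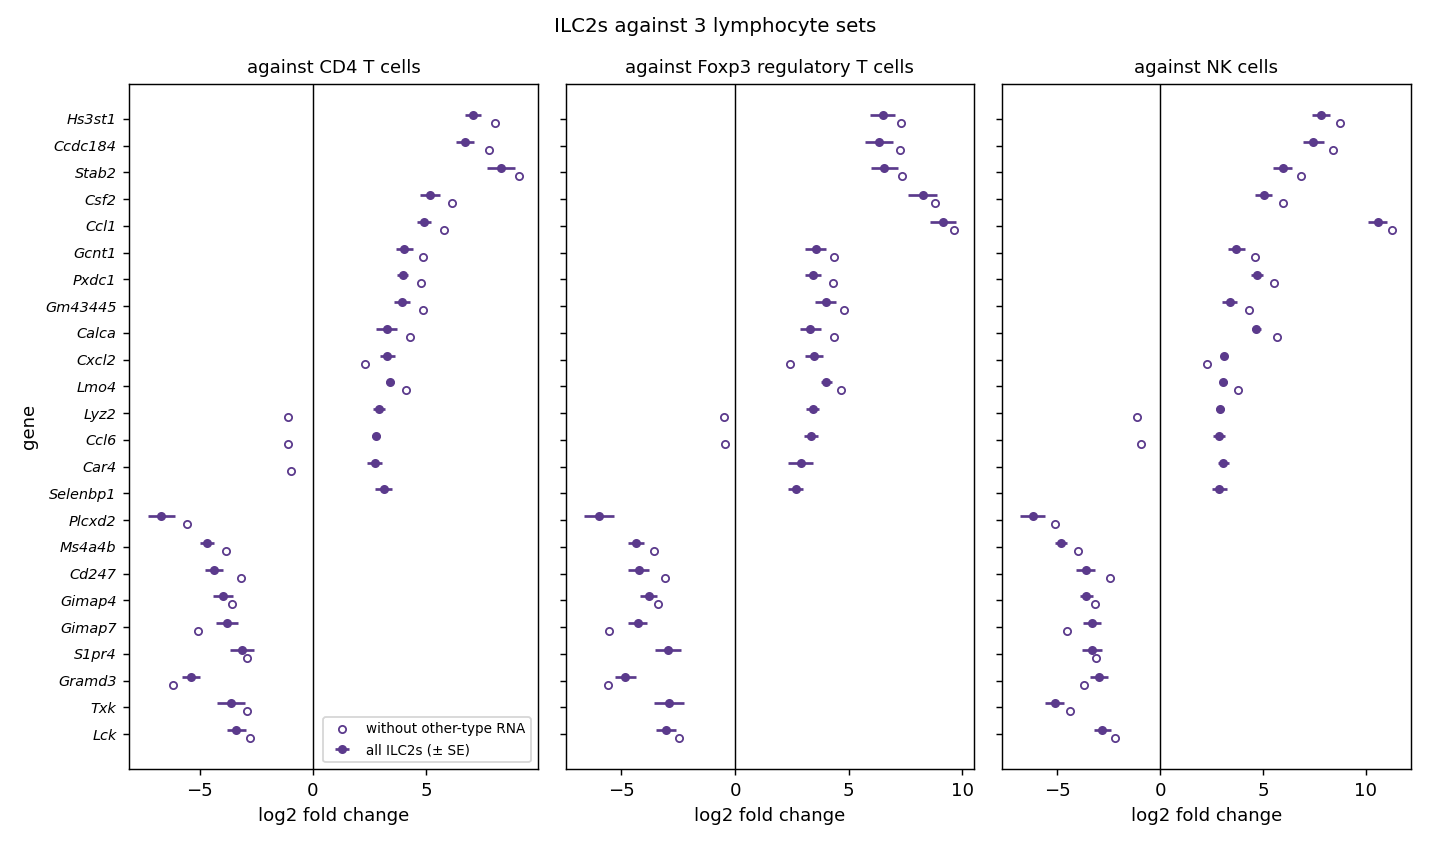
Log2 fold change of ILC2s over CD4 T cells, regulatory T cells and NK cells for 24 genes named by rule, with all ILC2s (filled, ± SE) and ILC2s without RNA of another type (open). Hs3st1, Csf2, Ccl1 and Lmo4 are above 3 in every comparison either way, where fitted values against a set with no UMI depend on the prior count, and the open points of Lyz2 and Ccl6 lie below 0.

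Markers of T cell residence and activation were mixed. Ctla4, a checkpoint receptor of regulatory T cells, was lower than in CD4 T cells (-3.58 ± 0.47) and regulatory T cells (-5.03 ± 0.53). S1pr1, the receptor for exit from tissue, averaged 24.7 ± 29.0 CPM, against 327 ± 114 in CD4 T cells (-3.63 ± 0.46) and 232 ± 108 in regulatory T cells (-3.03 ± 0.53), and did not pass against NK cells (-0.17 ± 0.47, adjusted p = 0.821). Klf2, the factor that drives S1pr1, was lower than in all 3 (-0.88 ± 0.22, -0.90 ± 0.25 and -1.54 ± 0.22). Cd44, an adhesion receptor of activated lymphocytes, was higher than in all 3 (1.1 ± 0.22, 1.29 ± 0.27 and 1.60 ± 0.16). Of the chemokine receptor and residence list, 1 of 15, 0 of 15 and 5 of 14 were called higher and 6, 7 and 6 lower; without RNA of another type 5 of 16, 1 of 13 and 7 of 14 were higher, among them Cxcr6, a lung-homing receptor, in each comparison. Of the costimulatory and checkpoint list, 4 of 17, 2 of 15 and 10 of 14 were higher and 3, 6 and 2 lower, beside 11.6%, 11% and 17.6% of all genes called higher. Without RNA of another type 11 of 18, 2 of 12 and 7 of 12 were higher and 3, 4 and 1 lower. Of all genes, 412 of 5677, 296 of 1792 and 582 of 3934 were then higher. Against regulatory T cells the shares of higher calls in both lists were then near or below that of all genes. Klrg1, a lectin receptor of activated ILC2s, averaged 38.6 ± 25.8 CPM, below regulatory T cells (-1.78 ± 0.31) and NK cells (-2.06 ± 0.27), and its 1.58 ± 0.55 against CD4 T cells missed the threshold (adjusted p = 0.0642); without RNA of another type it was called higher than in CD4 T cells (2.58), was not called against regulatory T cells (-0.82, adjusted p = 0.0514) and was lower than in NK cells (-1.04).

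Genes of T cell receptor signalling were lower in ILC2s; the rule had required the Cd3 genes to be absent, and both T cell sets required them, so these values follow the choice of cells in part. Lck, the kinase next to the receptor, averaged 25.6 ± 25.3 CPM in ILC2s, against 251 in CD4 T cells (log2 fold change -3.38), 212 in regulatory T cells (-3.04) and 186 in NK cells (-2.81). Trac, the alpha chain constant region, averaged 28.4 ± 31.7 CPM, against 403 ± 43.9 in CD4 T cells (-3.82 ± 0.39). Trbc1 and Trbc2, near-identical beta chain constant regions whose reads can be split, were lower than in CD4 T cells by less (-1.71 ± 0.19 and -1.97 ± 0.23), and were seen in 30.7% and 44.7% of ILC2s. Ms4a4b, a T and NK membrane protein, averaged 14.0 ± 12.2 CPM, against 393 ± 219, 325 ± 230 and 511 ± 115 CPM in the 3 sets. Plcxd2, Cd247, Gimap4, Gimap7, S1pr4, Gramd3 and Txk were also called lower against all 3; without RNA of another type, 6 of the genes lower by the naming rule were called against all 3 sets and 3 against 2. Of the NK cell genes outside the rules, Klre1, Eomes, Prf1 and Tbx21, all 4 were lower than in NK cells, with a median of -5.73.

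Immediate early genes, which respond to cell stimulation and to handling, were called higher in ILC2s for 15 of 23, 14 of 22 and 16 of 22 tested and lower for 1, 0 and 2, with medians of 0.92, 0.73 and 1.15; the shares of all genes called higher were 11.6%, 11% and 17.6%. Without RNA of another type 12 of 23, 12 of 20 and 13 of 22 were higher and 2, 1 and 3 lower. Fosb averaged 1220 ± 307 CPM, against 292 ± 73.2 in CD4 T cells (2.14 ± 0.18), 328 ± 136 in regulatory T cells (2.06 ± 0.19) and 234 ± 80.8 in NK cells (2.62 ± 0.15). Nfkbia, the NF-kappaB inhibitor, was higher by 1.65 ± 0.16, 1.19 ± 0.19 and 1.94 ± 0.14. Egr1 did not pass against any set (0.63, 0.68 and 0.95) and was called lower than all 3 without RNA of another type (-1.61, -1.57 and -1.20). The part of tissue digestion in these levels was not tested.

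Several groups moved with the RNA of other cell types. All 5 tested macrophage markers were called higher in ILC2s than in each of the 3 sets (medians 2.58, 2.58 and 2.70), and none was without RNA of another type. The restriction left out ILC2s by macrophage markers, so this loss follows the choice of cells in part. It was not applied to CD4 T, regulatory T and NK cells, where cells with macrophage RNA held 8.06%, 10.6% and 7.70% of UMIs. Lower values in the restricted ILC2s below, as for Lyz2, Ccl6 and Lgals3, are subject to the same limit. Lyz2, the lysozyme of myeloid cells, averaged 4739 ± 1135 CPM and was higher by 2.91, 3.42 and 2.89, but by -1.10, -0.49 and -1.14 without that RNA. Ccl6, a myeloid chemokine, changed likewise, with 2.78, 3.34 and 2.86 against -1.11, -0.46 and -0.95. Lgals3 (galectin-3, which binds galactose-containing glycans) was called higher in all 3 comparisons (1.69 ± 0.21, 1.93 ± 0.31 and 2.31 ± 0.23) and lower in all 3 without that RNA (-1.99, -1.66 and -1.37). Among the lipid genes, 9 of 12 tested were called higher than in CD4 T cells, and 2 of 9 without that RNA, with Fabp5, a fatty acid carrier, at 1.59 ± 0.28 with all ILC2s and -1.01 without that RNA. Car4, an endothelial and epithelial carbonic anhydrase, and Selenbp1, both among the named genes, had at most 2 UMIs in any library without that RNA. Slc7a8, an amino acid transporter, kept its direction, at 55.2 ± 11.8 CPM in ILC2s against 3.43 ± 2.49 in CD4 T cells (4.01 ± 0.56, and 5.03 without that RNA). Of the 15 genes named as higher, 11 were called higher against all 3 sets without that RNA.

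Of the 15 named higher genes, 14 had a RefSeq promoter entry, and 3 of these (21.4%) held the GATA motif within 250 bases of a start, against 29.7% of 27025 genes.

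GAL and WT ILC2s were compared last, with Galt first. Over all kept cells Galt, at 4:41755228-41758695 on the plus strand, gave 13.4 and 10.8 CPM in GAL, against 11.5 and 11.5 CPM in WT, with GAL on both sides of WT. In ILC2s it had 3 and 0 UMIs in GAL, against 2 and 4 in WT, too few to test; the floor of 3 UMIs stood at 8.80 and 31.9 CPM in GAL and at 14.2 and 12.3 CPM in WT. These counts do not check the labels, since the kind of edit is not given and an edited gene can still be transcribed.

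No gene of 3245 was called between GAL and WT ILC2s by edgeR's quasi-likelihood test (0% called, smallest adjusted p = 0.627). At an unadjusted p under 0.05 there were 169, 80 higher and 89 lower in GAL, and DESeq2 called 1. Both GAL libraries lay on one side of both WT libraries for 1149 genes (35.4%). The count of 0 rested on the 4 libraries together: 4, 213, 43 and 23 genes were called when GAL replicate 1, GAL replicate 2, WT replicate 1 or WT replicate 2 was left out, each time on the assumption that the lone library varied like the other group. Without RNA of another type none of 1408 genes was called, 76 at an unadjusted p under 0.05, with a smallest adjusted p of 0.179.

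Genes named by the smallest unadjusted p are given as values. Mfap4, a matrix protein of fibroblasts and muscle, stood at 367 and 127 CPM in GAL ILC2s, against 37.9 and 28.8 CPM in WT (log2 fold change 3.12 ± 0.59, edgeR adjusted p = 0.627). Gpx3, a secreted glutathione peroxidase, stood at 472 and 403 CPM in GAL, against 147 and 193 CPM in WT (1.52 ± 0.34). Malat1, a nuclear RNA, stood at 19642 and 17593 CPM in GAL, against 13145 and 10887 CPM in WT (0.78 ± 0.17). Both GAL libraries were above both WT libraries for all 3. This order also held over all kept cells. There Mfap4 stood at 369 and 151 CPM in GAL, against 68.2 and 94.3 CPM in WT. Gpx3 stood at 609 and 317 against 203 and 191 CPM, and Malat1 at 20288 and 17187 against 13738 and 14095 CPM. In B cells Malat1 stood at 21224 and 18754 CPM in GAL, against 17016 and 17619 CPM in WT, while Mfap4 and Gpx3 overlapped. Without RNA of another type, Mfap4 had 3 and 0 UMIs in GAL and 0 and 1 in WT, Gpx3 had 4 and 2 against 0 and 1, and Malat1 stood at 0.52 ± 0.20. Cst3, a cysteine protease inhibitor, and Marcks, a membrane-bound kinase substrate, had 1.35 ± 0.32 and 2.08 ± 0.50. Cst3 came to -0.10 without that RNA, and Marcks then had 0 and 2 UMIs in GAL and 1 and 4 in WT. Over all kept cells both GAL libraries were above both WT libraries for Marcks, and for Cst3 the groups overlapped.

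On the other side, Gdf15, a stress-induced cytokine, stood at 29.3 and 31.9 CPM in GAL ILC2s, against 242 and 609 CPM in WT (-3.63 ± 0.58, edgeR adjusted p = 0.627; DESeq2 adjusted p = 0.00209). Lgals3 stood at 355 and 308 CPM in GAL, against 1270 and 1029 CPM in WT (-1.64 ± 0.32). Stmn1, a microtubule regulator of dividing cells, stood at 164 and 117 CPM in GAL, against 403 and 494 CPM in WT (-1.47 ± 0.36). The GAL libraries were below both WT libraries for these genes, and for Cd14 (-1.45 ± 0.36) and Plaur (-1.32 ± 0.35, and -0.68 ± 0.60 without RNA of another type). In the restricted cells Gdf15 had 3 and 1 UMIs in GAL and 3 and 2 in WT, Lgals3 had 3 and 3 against 3 and 12, Stmn1 had 0 and 2 against 35 and 8, and Cd14 had 7 and 1 against 5 and 17. ILC2s that carried macrophage RNA numbered 3 and 1 in GAL and 9 and 8 in WT. Over all kept cells both GAL libraries were also below both WT libraries for each of these genes. Lgals3 stood there at 689 and 779 CPM in GAL, against 1246 and 1179 CPM in WT, and Gdf15 at 270 and 295 against 320 and 482 CPM. In B cells the same order held for Gdf15, Lgals3 and Cd14 and not for Stmn1 and Plaur. The part of such library-wide differences in the ILC2 values was not tested.

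The cytokine and identity genes did not pass either. Csf2 stood at 197 and 202 CPM in GAL, against 52.1 and 160 CPM in WT (1.05 ± 0.51, edgeR adjusted p = 0.895), with both GAL libraries higher. Il13 stood at 91.0 and 63.7 CPM in GAL, against 28.4 and 86.4 CPM in WT, which overlap (0.63 ± 0.56, adjusted p = 0.988). Il7r stood at 522 and 680 CPM in GAL, against 474 and 383 CPM in WT (0.62 ± 0.34, adjusted p = 0.938), and at 0.85 ± 0.28 without RNA of another type (adjusted p = 0.595). For Ccl1, Calca, Lmo4, Il2ra and Hs3st1 the values were 0.35 ± 0.49, 0.08 ± 0.44, 0.14 ± 0.31, 0.18 ± 0.38 and 0.72 ± 0.67. After thinning, Il13 was seen in 4.62% and 6.90% of GAL ILC2s, against 4.76% and 6.67% of WT ILC2s, a difference in means of 0.0417 percentage points (exact permutation p = 1). With 2 to 4 cells with Il13 in each library, no difference in that share was detectable at this depth.

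**Figure D5:**
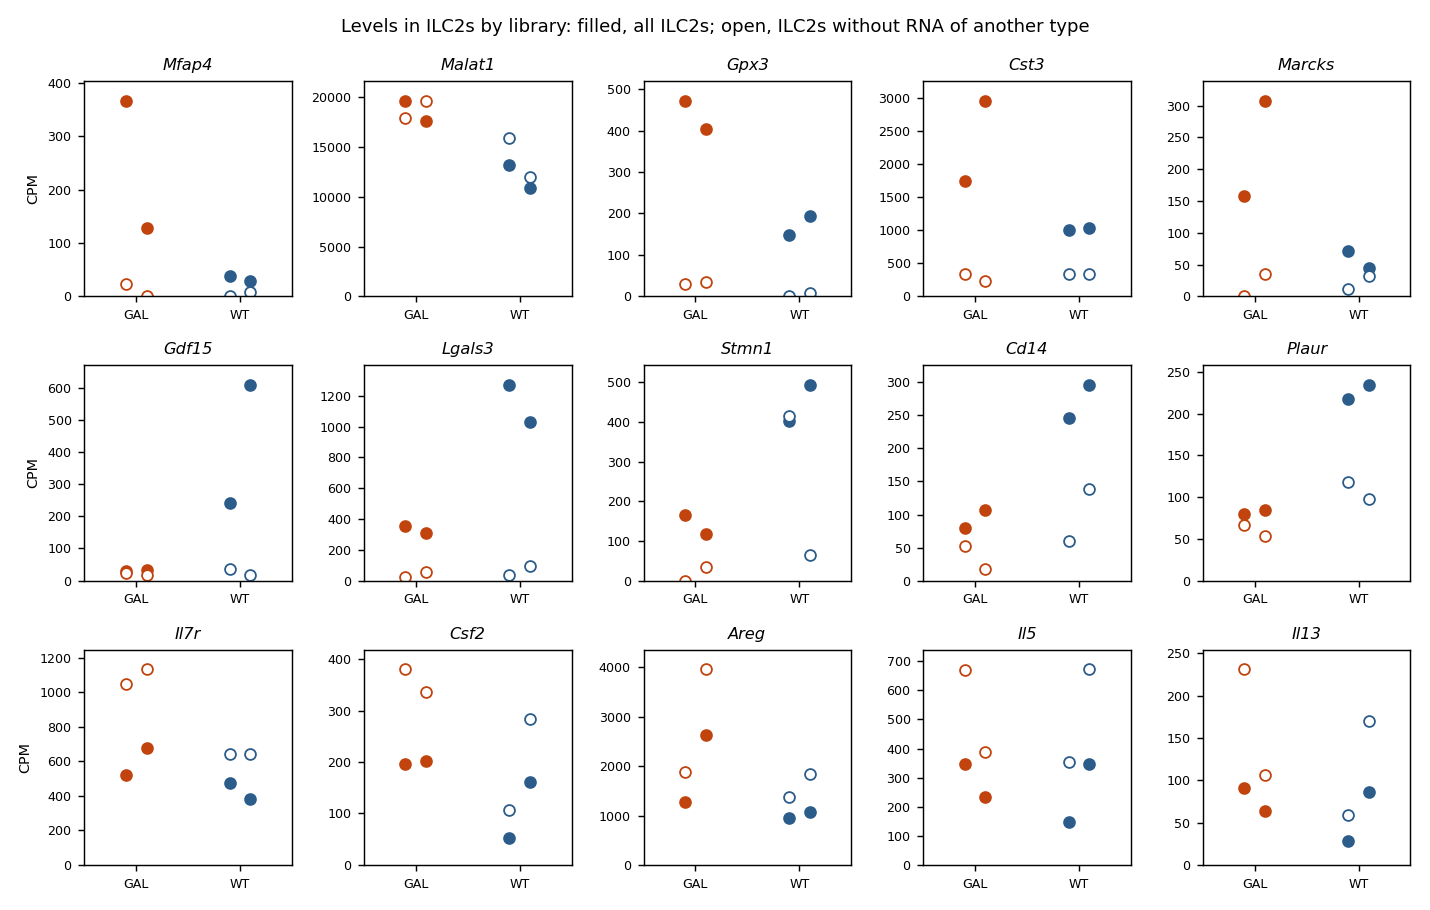
CPM in the ILC2s of each library, GAL left of WT, for the 10 genes with the smallest unadjusted p and for Il7r, Csf2, Areg, Il5 and Il13, with all ILC2s (filled) and those without RNA of another type (open). GAL and WT are apart for Gdf15, at 29.3 and 31.9 against 242 and 609 CPM, but not among the open points.

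Lists gave no calls between GAL and WT. Of the 22 ILC2 markers outside the rule, 13 of 16 tested had positive fold changes (median 0.42, against 0.01 over all genes), and 10 of 15 without RNA of another type. All 12 tested mitochondrial transcripts were positive (median 0.60, and 0.62 in the 11 tested without RNA of another type). Over all kept cells the median percentage of mitochondrial UMIs had the same order, at 2.30 and 2.25 in GAL, against 1.82 and 1.78 in WT. The part of that library-wide difference in the ILC2 values was not tested. Positive too were 20 of 20 ribosomal protein genes (0.19) and 19 of 21 immediate early genes (0.35). Without RNA of another type 13 of 19 immediate early genes were positive, with a median of 0.21. None of the 8 tested cell division genes was positive (median -1.54), and Mki67, a marker of cycling cells, had 9 and 1 UMIs in GAL, against 46 and 26 UMIs in WT. Those UMIs came from 2 and 1 cells in GAL and from 7 and 5 in WT, and 2 of the 3 cell division genes still tested without RNA of another type were positive (median 0.02). Of 6 tested Leloir and galactose genes 1 was positive (median -0.29). Markers of other types also had uneven medians, 1.29 for 5 fibroblast genes, 2.30 for 3 epithelial genes and -0.52 for 5 macrophage genes, and their part in these values was not tested.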

How the data were processed

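Lungs of GAL and WT mice were washed, minced and digested with collagenase IV and DNase I, and droplet libraries were made with the SeekOne DD kit, per the labels' protocols. The submitters' processing notes name fastp, STAR, Seurat and GRCm38 (mm10); versions, the counting annotation and how barcodes were selected are not given in the sources used here. All deposited values are raw UMI counts per gene and barcode for 32285 genes in 4 libraries (56218178 to 62406681 UMIs). The authors' filter is not stated; the lowest barcode held 500 UMIs. From these counts, cells with at least 300 genes and at most 20% mitochondrial UMIs were kept, and all cell sets were chosen by the UMIs of fixed genes. CD4 T cells had at least 2 Cd3 genes and Cd4, without Foxp3; regulatory T cells had Foxp3; NK cells had at least 2 of Ncr1, Klrb1c, Gzma and Klra8 without the genes that ILC2s lack.

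Counts were summed per library and set (TMM, filterByExpr) and tested with edgeR 4.0.16 in R 4.3.3 (quasi-likelihood, Benjamini-Hochberg over all genes tested), GAL against WT over 4 libraries without covariates, and ILC2s against other sets with the library as a block; DESeq2 1.42.0 was the other tool. The code was tested on simulated data. Intervals are exact (Clopper-Pearson, 95%) and cover counting error only. Doublets were scored with Scrublet in scanpy 1.11.5 and were not removed in the main results. Exact tests used scipy 1.17.1. Named genes are those called in one direction against all 3 sets with at least 50 CPM, ranked by their smallest fold (15 higher, 10 lower), the 5 with the smallest unadjusted p in each direction between GAL and WT with at least 100 CPM, and 2 to 8 members of each list described. The members of the rule, the gene lists and the tests were chosen with earlier results of these data known. Promoters are from RefSeq (GRCm38.p6). Results of a few genes that these rules name are not reported here.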

Additional observations from a re-analysis of the deposited data

How the results depend on the processing

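No paired analysis was possible because the replicate numbers 1 and 2 follow only the order of the samples, and no label ties a GAL library to a WT library by litter, batch or day. The count of genes called between GAL and WT, 0, was 1 with DESeq2 (Gdf15), 1 when ILC2s had to carry Ptprc or Il7r and lack Lyz2, Cd68, Epcam, Pecam1, Dcn, Col1a1 and Col1a2 (Ccl1; the strict immune set), 84 with no filter on low counts, and 4 to 213 when one library was left out. Against CD4 T cells the 1153 calls were 699 with at least 4 of the 7 genes, 428 in the strict immune set, 2056 with no filter, and 696 to 1084 without one library (696 without GAL replicate 1, 753 without WT replicate 2). Against regulatory T cells the 663 were 342, 251 and 1072 under those 3 settings, 436 with DESeq2 and 412 to 616 without one library (412 without WT replicate 2). Against NK cells the 1477 were 940, 697 and 2253, and 1075 to 1401 without one library. The difference in the share of kept cells, -0.0448, was 0.00457 with at least 4 genes, 0.00455 without T cell transcripts, and -0.178 to 0.0881 without one library. Of cells with Ptprc, -0.0120 was 0.108 with at least 4 genes, 0.0795 with Areg and Arg1 not counted, 0.0395 without T cell transcripts, 0.0206 without likely doublets, 0.0673 without RNA of another type, and -0.244 to 0.220 without one library. The difference in the share with Il13, 0.0417, was -0.842 at 500 UMIs, and -1.10 to 1.18 without one library. Between GAL and WT, with at least 4 genes, with Areg and Arg1 not counted, Gpx3 came to -1.74 and -0.061, Cst3 to -1.18 and -0.64, and Lgals3 to 0.29 and 0.47; Cst3 came to -0.10 without RNA of another type. Lyz2 was -0.60 against CD4 T and -0.55 against NK cells with at least 4 genes, and in the strict immune set, which lacks it by choice, -12.06, -9.46 and -11.63 against CD4 T, regulatory T and NK cells; without RNA of another type it was -1.10, -0.49 and -1.14. Ccl6 was -2.08 and -1.81 against CD4 T and NK cells in the strict immune set, and -1.11, -0.46 and -0.95 without RNA of another type, where Car4 was -0.95 against CD4 T cells. Fewer cells and genes entered the stricter settings. The strict immune set held 18 and 13 ILC2s in GAL and 22 and 19 in WT. The cause of the other changes was not tested. Of the values of named genes under alternatives, 839 of 861 against other sets and 87 of 114 between GAL and WT kept direction and side of the threshold. The 32 ILC2s of GAL replicate 2 and their 94186 UMIs limit every GAL and WT comparison. Of these UMIs, 1 ILC2 with macrophage RNA held 19.2% and 1 with fibroblast RNA held 20.9%.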

Other observations

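Genes of mitochondrial respiration and protein synthesis were called mainly against NK cells. Of 12 tested transcripts of mitochondrial DNA, 11 were called higher than in NK cells (median log2 fold change 0.68, edgeR with Benjamini-Hochberg adjustment), 2 higher than in regulatory T cells (0.34) and none against CD4 T cells (0.22). Of 20 cytosolic ribosomal protein genes, 16 were called higher than in NK cells, none in regulatory T cells, and 1 lower than in CD4 T cells; without RNA of another type 20, 8 and 4 were called higher. Of the glycolysis enzymes, 3 of 15 tested were called higher and 1 lower than in CD4 T cells (median -0.14), 2 of 11 higher and none lower than in regulatory T cells (-0.04), and 5 of 14 higher and 2 lower than in NK cells (0.29). Aldoa, one of those higher in each comparison, averaged 281 ± 62.0 CPM in ILC2s (SD, n = 4) and was higher than in CD4 T cells (0.95 ± 0.18), regulatory T cells (0.98 ± 0.25) and NK cells (1.06 ± 0.18), and by 0.97, 1.00 and 1.08 without RNA of another type. Interferon response genes went both ways: 1 of 10 tested was called higher and 3 lower than in CD4 T cells, 1 of 7 and 3 than in regulatory T cells, and 3 of 8 and 1 than in NK cells. The shares of all genes called higher were 11.6%, 11% and 17.6%. Ifitm3, which restricts virus entry, averaged 295 ± 64.4 CPM and was higher than in all 3 (1.18 ± 0.28, 1.40 ± 0.20 and 1.34 ± 0.21), but at -0.91, -0.63 and -0.74 without RNA of another type. Ifi27l2a averaged 234 ± 153 CPM, below CD4 T cells (-1.86 ± 0.30) and regulatory T cells (-2.76 ± 0.36), and above NK cells (1.95 ± 0.38), a call that was lost without RNA of another type (0.42, adjusted p = 0.440).

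Kit, the stem cell factor receptor of mast cells and of some innate lymphoid cells, gave 17 and 4 UMIs in the GAL ILC2s and 13 and 22 UMIs in the WT ILC2s. It was seen in 18.9% of ILC2s, averaged 61.1 ± 21.1 CPM and was higher than in CD4 T cells (4.40 ± 0.46) and NK cells (2.53 ± 0.36), also without RNA of another type (5.27 and 3.38). Of the mast cell and basophil genes that the rule required to be absent, none had a UMI in these cells by construction, and Fcer1a had 1 UMI. Il17a gave 37 UMIs in 6 ILC2s, and Foxp3 was seen in 7 of the 228.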
